A study of Homo sapiens with 9 samples.

Results

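The 125 genes described here were high for a short time after induction of AML1-ETO. They were chosen by measured values, from 60623 genes in the files. FPKM is the number of reads of a gene for its exon length and for the size of the library. With a pseudocount of 0.1 added to every FPKM, a gene was selected when the AML1-ETO line was at least 1.8 times higher at 12 h than at 0 h, at most 0.6 times as high at 48 h as at 12 h, and at an FPKM of at least 2 at 12 h. The ratio of 12 h to 0 h also had to be under 1.5 in the empty vector line. Of the 10178 genes with an AML1-ETO 12 h FPKM of at least 2, the 125 members are 1.23%. Values from the AML1-ETO line, and the empty vector values at 0 and 12 h, chose the members and are given as a description. The ETO2-GLIS2 line and the empty vector line at 48 h took no part in the choice.

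U937 is a human leukemia cell line of immature monocytic cells. An empty vector line, an AML1-ETO line and an ETO2-GLIS2 line were sequenced at 0, 12 and 48 h of 5 µg/ml doxycycline, with 1 library per line and time, 9 libraries in all. The AML1-ETO line (labelled as AE over-expressed, clone #4) and the ETO2-GLIS2 line (EG over-expressed, clone #14) carry the HA-tagged fusion cDNA in the retroviral vector pRetrox-Tet3G, and the control line (labelled WT) carries the empty vector. Infected cells had been selected with puromycin, and each fusion line is a clone grown from a single cell, so a difference between lines can also be a difference between clones. Without replicate libraries there is no replicate check. No p-value is given. The 95% intervals printed beside ratios are exact Clopper-Pearson intervals that cover counting error only, computed from reads without the pseudocount that the ratios carry.

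AML1-ETO joins the Runt DNA-binding domain of RUNX1 to most of the corepressor ETO (RUNX1T1) and is the product of the t(8;21) translocation of acute myeloid leukemia. ETO2-GLIS2 joins the related corepressor ETO2 (CBFA2T3) to the zinc fingers of GLIS2 and is found in acute megakaryoblastic leukemia. Both proteins bind DNA and carry corepressor domains, and both can be found at genes that go up as well as at genes that go down. A gene with a short peak after induction is up at an early time and back near its starting level later.

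The library totals behind the FPKM values were between 15136403 and 18443644 reads, as recovered from the values. RUNX1T1, which is part of the AML1-ETO transcript, was in the AML1-ETO line at an FPKM of 0.51, 22.2 and 28.7 at 0, 12 and 48 h, and at most 0.024 in the other 6 libraries. In the ETO2-GLIS2 line GLIS2 was at 2.39, 6.79 and 8.85 and CBFA2T3 at 4.10, 11.4 and 12.6. Of 10 markers of a monocytic line, 8 were at an FPKM of at least 1 in all 9 libraries, while all markers of T cells, erythroid cells, megakaryocytes and epithelium were under 1 in every library. Of 3 B cell markers, 1 was at or above 1 in every library, and their summed FPKM lay between 1.92 and 5.77. In RNA from bulk cultures, fewer cells of a kind and less RNA per cell cannot be told apart.

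Reads could be recovered for 123 members, and they show that the members are of unequal weight. Only 35 members had at least 100 reads in the AML1-ETO 12 h library, 47 had 10 to 99 reads, and 41 had under 10 reads. Of the 125 members, 31 were protein coding, 24 were long noncoding RNA genes, 20 were pseudogenes and 45 were genes of small RNAs such as microRNAs, small nucleolar RNAs, U6 and Y RNAs. Of the remaining 5, TRBD1 is a T cell receptor gene segment, and 4 had no entry in the annotation used. Small RNA genes were 36% of the members and 2.08% of all genes that passed the FPKM floor, where protein coding genes were 87.1%. Of the 212 small RNA genes that passed the floor, 21.2% were members, against 0.35% of the protein coding genes. The floor was set in the library where members had to be high, so a short gene can pass it through its peak alone. Of the 45 small RNA members, with a median exon length of 92 bases, 20 were at an FPKM of 0 at 0 h. These shares therefore describe the choice and are no result about small RNAs.

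Counting intervals show how many reads stand behind the members of each kind. They come from the same values that chose the members, so they give no separate support. No share over all genes was computed for them. The intervals of both AML1-ETO ratios lay clear of 1 for 31 of 31 protein coding members, 17 of 24 long noncoding RNA genes, 13 of 20 pseudogenes and 5 of 45 small RNA genes, 68 members in all. The median small RNA member had 6 reads at 12 h, and 13 of the 45 had no read at both 0 and 48 h. RNU6-1017P, a copy of the U6 gene, is an example, with 0, 7 and 0 reads at the 3 times in the AML1-ETO line, 0, 1 and 0 reads with ETO2-GLIS2, and none in the empty vector line. MIR6767, which had no entry in the annotation, had 0, 6 and 0 reads in the AML1-ETO line, 0, 0 and 4 with ETO2-GLIS2, and 1, 0 and 0 in the empty vector line. SNORD20, a small nucleolar RNA, had 2, 7 and 1 reads in the AML1-ETO line and 3 at each time with ETO2-GLIS2. Libraries were made with a kit that selects polyadenylated RNA, which most mature small RNAs are not. The results below therefore lean on the 35 members with at least 100 reads, a limit set after the data had been seen, of which 28 are protein coding, 5 are long noncoding RNA genes, 1 is a pseudogene (NSFP1) and 1 is a microRNA gene (MIR4655). In 33 of these 35 the AML1-ETO 12 h library was the highest of the 9. The exceptions were PPIH, highest in the ETO2-GLIS2 12 h library, and AEN, highest in the empty vector 12 h library. The count of 33 follows largely from the choice, which set this library above the others of its line and limited the empty vector rise. The limit of 100 reads was set in the same library, and no share over all genes was computed.

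Over the 35 well-counted members the median log2 ratio of 12 h to 0 h in the AML1-ETO line was 1.07 and that of 48 h to 12 h was -1.13, by choice. The median of 48 h against 0 h was -0.08, so they ended about where they began, and that of all 9159 genes with as many reads was 0.14. At 48 h 21 of the 35 were below their 0 h level, against 3898 of the 9159 genes. Of the 35, none but ADAMDEC1 was under 0.5 of its 0 h level, and no share over all genes was computed for this limit. The smallest ratio of 12 h to 0 h was 1.82, of CCNE1. It was just inside the limit, as were SNHG10 and WDR12, while HSPA8, a heat shock protein with an FPKM of 131, 234 and 127, stood just outside with 1.79. At the limit on 48 h over 12 h, ZNF674-AS1 and LINC02593 were inside with 0.599 and 0.598 and AP001029.1 with 0.595, and SURF2, AC126544.2 and NIFK, a nucleolar protein, were outside with 0.602, 0.604 and 0.605. AC091390.3 and PRKAG2-AS1, with 1.78 each, were the other genes just outside the limit on 12 h over 0 h.

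**Figure D1:**
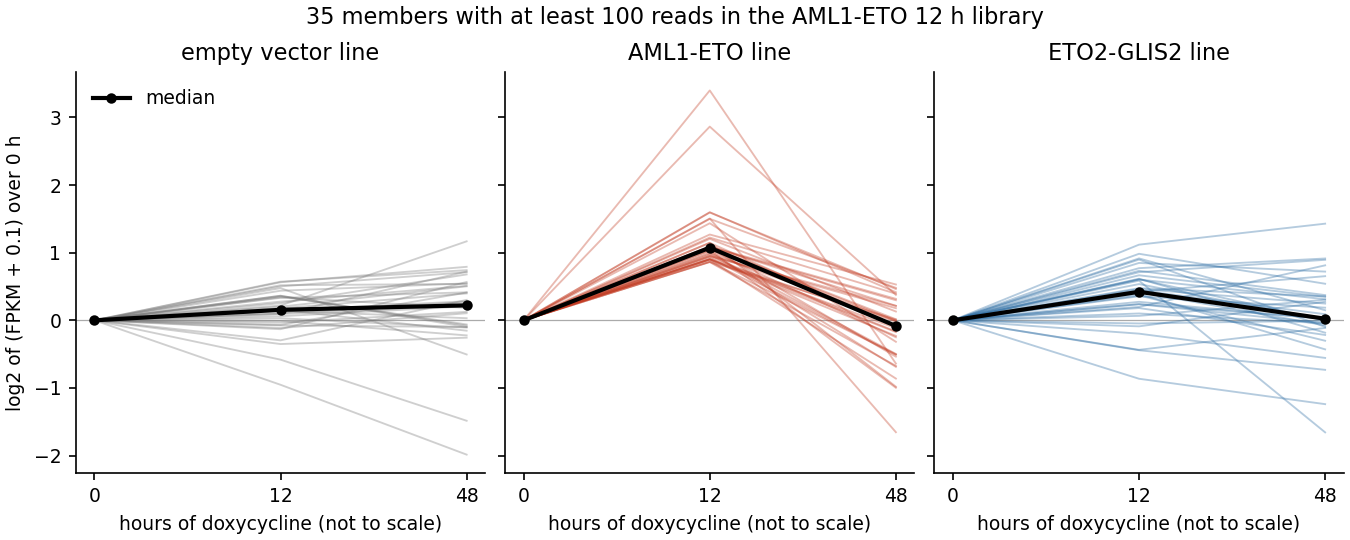
Course of the 35 members with at least 100 reads in the AML1-ETO 12 h library, as log2 of FPKM plus 0.1 relative to 0 h of the same line (vertical axis) at 0, 12 and 48 h (horizontal axis, not to scale), 1 thin line per gene and a black line for the median. The median reaches 1.07 at 12 h in the AML1-ETO line by choice, 0.42 in the ETO2-GLIS2 line and 0.16 in the empty vector line.

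In the ETO2-GLIS2 line, which the choice did not use, the same 35 genes had a lower and less uniform peak. Their median log2 ratio of 12 h to 0 h was 0.42, and that of all 9159 genes with as many reads was 0.10. From 12 to 48 h the median was -0.29, against 0.03 for all, and from 0 to 48 h it was 0.02. The order high at 12 h and lower at both ends was found for 23 of the 35, against 32% of all such genes. For 23 of 35 the counting interval of 12 h over 0 h lay above 1 and for 3 below 1, while that of 48 h over 12 h lay below 1 for 17 and above 1 for 5. Both intervals showed a peak for 15. No share over all genes was computed for these interval counts. With many reads a small shift also clears 1, so the counts describe the members only.

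Few of them reached the size used to choose them. In the ETO2-GLIS2 line 5 of the 35 were at least 1.8 times higher at 12 h, against 1.26% of all genes with as many reads, and 5 of the 35 were at most 0.6 times as high at 48 h as at 12 h, against 2.63%. Both ratios held for 2 of the 35, AEN and KBTBD8, against 0.0764%, which is 7 of 9159 genes. The genes at least 1.8 times higher were ADAMDEC1, ZNF551, KBTBD8, AEN and MIR4655. The genes that were low at 48 h were AEN, KBTBD8, RCL1, SNHG10 and DHRS9. Over all 125 members the counts were 30 at least 1.8 times higher, against 3.34% of the 10178 genes, 24 at most 0.6 times as high at 48 h, against 3.53%, and 13 with both, against 0.619%. Another 11 were lower at 12 h by the same factor, against 1.46%. Of the 30, the 13 and the 11, 25, 11 and 10 were among the 90 members without 100 reads, and the shares of all 1019 genes without 100 reads were 22.1%, 5.5% and 7.75%. Of the 24, only the 5 named above had at least 100 reads. For the rest the share over genes without 100 reads was not computed. Among members at an ETO2-GLIS2 FPKM of at least 2 at 0 or 12 h, the 5 highest at 12 h relative to 0 h, AP000553.5, MIR25, RNU6-856P, AC092755.1 and SNORD67, had between 5 and 28 reads in the ETO2-GLIS2 12 h library. Of the 5 lowest, RNU6-1209P, RNU6-216P, SNORD100 and COX6A1P2 had at most 8, and MS4A7 had 86.

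**Figure D2:**
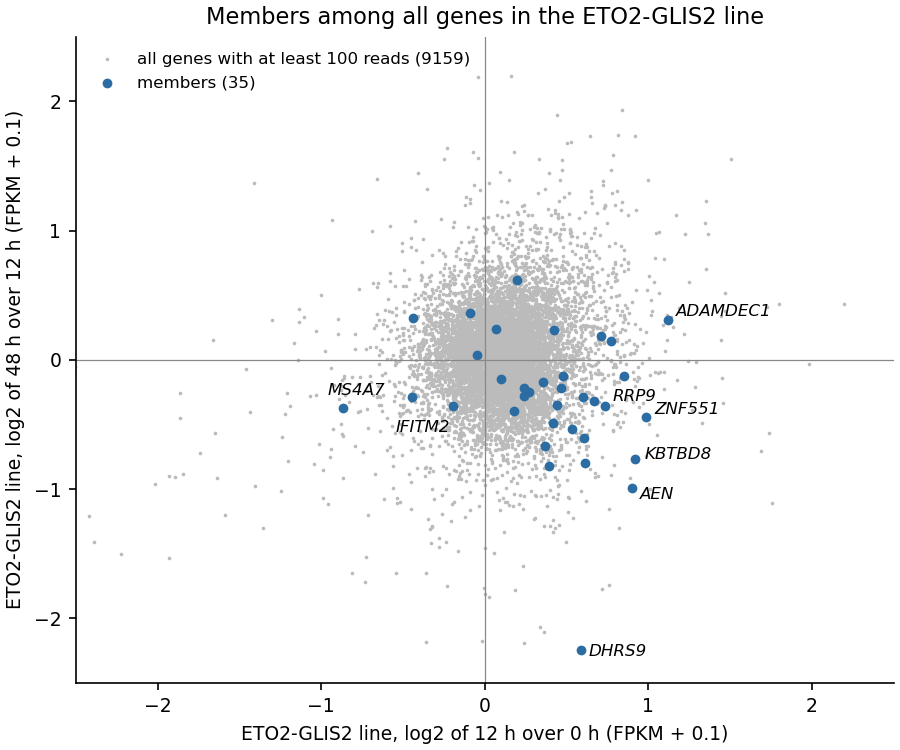
Log2 ratio of 12 h to 0 h (horizontal axis) and of 48 h to 12 h (vertical axis) in the ETO2-GLIS2 line, on FPKM plus 0.1, for the 35 members with at least 100 reads (blue) and all 9159 genes with as many reads in the AML1-ETO 12 h library (grey), of which 14 fall outside the axes. Of the 35 members 23 lie in the lower right part of the plot, higher at 12 h than at both 0 and 48 h, with AEN and KBTBD8 far out and MS4A7 on the opposite side.

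In the empty vector line the median log2 ratio of 12 h to 0 h of the 35 was 0.16, where the rule set an upper limit, and that of all genes with as many reads was 0.12. From 12 to 48 h it was 0.13, against 0.00 for all. Of the 35, 3 were at most 0.6 times as high at 48 h, against 1.8%. The intervals of 48 h over 12 h lay above 1 for 11 and below 1 for 6, again without a share over all genes. When each line was judged by the same ratios and FPKM floor in its own libraries and without the empty vector condition, 2.06% of genes peaked at 12 h in the AML1-ETO line, 1.73% in the empty vector line and 0.8% in the ETO2-GLIS2 line, or 210, 174 and 78 genes. All 125 members are among the 210 by choice, and 6 of the 61 members that passed the floor in the ETO2-GLIS2 line were among its 78. The empty vector condition left 85 of the 210 genes out.

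Promoters are shown for 6 of the well-counted members, to place the genes and to show which short motifs lie before them. Each run is the 120 bases just before the start of the gene in RefSeq on GRCh38.p14, read 5′ to 3′ on the strand of the gene, and capitals mark short motifs on either strand, which are the E-box CACGTG, the RUNX core motif TGTGGT, the ETS core motif CCGGAAG, the reverse CCAAT box ATTGG, the TATA box TATAAA and the AP-1 motif TGANTCA.
RRP9, chr3:51941905-51942024, minus strand: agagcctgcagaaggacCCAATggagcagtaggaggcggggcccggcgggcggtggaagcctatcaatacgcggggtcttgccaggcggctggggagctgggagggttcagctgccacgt
WDR12, chr2:202911674-202911793, minus strand: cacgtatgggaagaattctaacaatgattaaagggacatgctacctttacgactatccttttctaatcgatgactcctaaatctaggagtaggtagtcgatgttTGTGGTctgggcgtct
CCDC86, chr11:60841993-60842112, plus strand: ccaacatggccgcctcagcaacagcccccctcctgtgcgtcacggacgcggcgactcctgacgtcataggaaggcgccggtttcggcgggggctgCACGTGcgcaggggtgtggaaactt
SERPINB2, chr18:63887585-63887704, plus strand: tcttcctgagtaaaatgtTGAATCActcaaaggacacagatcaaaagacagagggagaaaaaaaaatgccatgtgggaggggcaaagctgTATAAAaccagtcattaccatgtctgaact
MS4A7, chr11:60378412-60378531, plus strand: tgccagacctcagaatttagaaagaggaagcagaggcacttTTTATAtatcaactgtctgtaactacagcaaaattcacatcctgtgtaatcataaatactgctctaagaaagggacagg
BTG1, chr12:92145847-92145966, minus strand: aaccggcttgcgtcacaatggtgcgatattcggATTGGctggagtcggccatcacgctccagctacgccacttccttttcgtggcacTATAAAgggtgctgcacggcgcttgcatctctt

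A promoter was listed for 23 of the 35 well-counted members, and motifs were counted in the 250 bases before the start on both strands. TGTGGT, the core bound by RUNX1, was in 3 of 23, in KLHL35, SLC22A4 and WDR12, against 7.08% of the promoters of 5270 genes that passed the FPKM floor and 11.2% of all 22114 promoters. TATAAA was in 4 of 23, in BTG1, ITLN1, MS4A7 and SERPINB2, against 4.40% and 11.8%. CACGTG was in 3, in CCDC86, PPIH and SLC22A4, against 10.1% and 6.34%. ATTGG was in 10 of 23, against 36.6% and 33.4%, CCGGAAG was in 5, against 20.2% and 8.90%, and TGANTCA was in SERPINB2 alone, against 3.19% and 6.86%. GCATGCGC, bound by NRF1, was in CCDC86, against 5.98% and 2.84%, and TGGGGGGT, a GLIS-type motif, was in none, against 0.873% and 1.14%. A match gives the letters only and says nothing about binding in these cells.

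RRP9, WDR12, RCL1 and CCDC86 encode proteins of the nucleolus, where ribosomal RNA is made and trimmed and ribosomal subunits are put together. RRP9 is a core protein of the U3 small nucleolar RNP, which is needed for processing of the ribosomal RNA precursor. The gene (ENSG00000114767, chr3:51933429-51941904) was at an FPKM of 23.9, 50.9 and 24.2 at the 3 times in the AML1-ETO line, 19.2, 32.0 and 24.9 with ETO2-GLIS2, and 29.4, 31.7 and 35.5 in the empty vector line. The peak was highest in the AML1-ETO line, and the ETO2-GLIS2 line showed a lower peak at the same time. The ratio of 12 h to 0 h was 2.12 (95% interval 1.93 to 2.35) in the AML1-ETO line, 1.66 (1.49 to 1.86) in the ETO2-GLIS2 line and 1.08 in the empty vector line.

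WDR12 (ENSG00000138442, chr2:202874261-202911673) encodes a subunit of the PeBoW complex, with PES1 and BOP1, that acts in maturation of the large ribosomal subunit. It was at 6.69, 12.3 and 6.74 in the AML1-ETO line, 6.20, 8.47 and 6.61 with ETO2-GLIS2, and 7.97, 7.78 and 8.70 in the empty vector line. Both fusion lines were back near the start at 48 h. The ratio of 12 h to 0 h was 1.82 (1.696 to 1.98) and 1.36 (1.26 to 1.48) in the AML1-ETO and ETO2-GLIS2 lines.

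RCL1 encodes a nucleolar protein of small subunit processing. Its FPKM was 3.28, 6.20 and 2.78 in the AML1-ETO line, 3.65, 4.82 and 2.69 with ETO2-GLIS2, and 4.66, 4.42 and 4.35 in the empty vector line. Of these 4 genes it had the most similar fall in both fusion lines, with a ratio of 48 h to 12 h of 0.46 (0.37 to 0.54) and 0.57 (0.46 to 0.67). CCDC86, a nucleolar coiled-coil protein, was at 5.32, 11.5 and 6.19, at 4.87, 5.76 and 4.72, and at 6.25, 6.68 and 7.31 in the same order of lines. Its ETO2-GLIS2 ratio of 12 h to 0 h was 1.18 (1.01 to 1.39), well under the 2.13 (1.87 to 2.49) of the AML1-ETO line.

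AEN, a nuclease of the nucleus and nucleolus that is induced by p53, had the most similar course in both fusion lines among the 35. It was at 5.96, 11.2 and 5.28 in the AML1-ETO line and at 4.53, 8.52 and 4.22 with ETO2-GLIS2. Its ratio of 12 h to 0 h was 1.87 (1.701 to 2.09) and 1.86 (1.69 to 2.10), and that of 48 h to 12 h was 0.47 (0.42 to 0.52) and 0.50 (0.44 to 0.56). The empty vector line had a smaller peak at higher levels, 9.29, 12.0 and 8.80, with ratios of 1.29 and 0.74. Measured genes are those with an AML1-ETO 12 h FPKM of at least 2. Of the 10 measured on a list of p53 targets, AEN was the only member. In each fusion line 2 of the 10, AEN among them, were at least 1.8 times higher at 12 h. AEN was so in the AML1-ETO line by choice. Of all genes, 7.67% passed with AML1-ETO and 3.34% with ETO2-GLIS2. The median log2 ratio of 12 h to 0 h of the 10 was 0.03 with AML1-ETO and 0.19 with ETO2-GLIS2. The medians of all genes were 0.18 and 0.10. KBTBD8, a substrate adaptor of the CUL3 ubiquitin ligase, was at 1.27, 2.79 and 0.85 in the AML1-ETO line, 1.31, 2.55 and 1.46 with ETO2-GLIS2, and 1.23, 1.17 and 1.67 in the empty vector line. Its 12 h levels in the fusion lines rest on 204 and 216 reads, and their ratios to 0 h were 2.10 (1.72 to 2.81) and 1.89 (1.55 to 2.47).

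A list of 22 genes of ribosome biogenesis and nucleolar proteins shows where RRP9 and WDR12 stand among genes of the same role. All 22 were measured, and the list was written with earlier results of these data known. In the AML1-ETO line 21 of 22 were highest at 12 h, in the ETO2-GLIS2 line 20 of 22 and in the empty vector line 4 of 22, where 34.7%, 31.4% and 31.8% of all 10178 genes had that order. The median log2 ratio of 12 h to 0 h was 0.38, 0.36 and -0.01 in these lines, and the median of all genes was 0.18, 0.10 and 0.12. From 12 to 48 h the list had medians of -0.64, -0.47 and -0.07. After scaling by the median ratio between libraries, which lowered the median of all genes by 0.16, 0.12 and 0.15 at 12 h, the counts were 18, 17 and 0 of 22, against 26.8%, 24.2% and 21.2% of all genes. In the AML1-ETO line RRP9 and WDR12, 2 of 22, passed the ratio of 1.8 at 12 h, against 7.67% of all genes, and 10 of the 22 were at most 0.6 times as high at 48 h, against 17.6%.

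The other 20 genes of the list stayed under the ratio of 1.8 at 12 h, while 8 of them passed the ratio for 48 h. Those named here were picked after their values were seen. RRS1, a factor of large subunit assembly, was at 26.4, 46.1 and 16.3 in the AML1-ETO line and 19.6, 29.6 and 20.2 with ETO2-GLIS2. NOLC1, a nucleolar phosphoprotein, was at 80.2, 111 and 50.3 and at 69.1, 89.1 and 49.8. DDX21, an RNA helicase, was at 50.0, 82.4 and 52.0 and at 48.1, 62.5 and 47.2, and in the empty vector line at 61.1, 59.2 and 59.5. FBL, the methyltransferase fibrillarin, was the exception in both fusion lines, with 84.8, 81.1 and 45.3 and with 65.4, 56.9 and 40.9. BOP1 was the other exception in the ETO2-GLIS2 line, where it was at 25.5, 29.3 and 31.9.

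**Figure D3:**
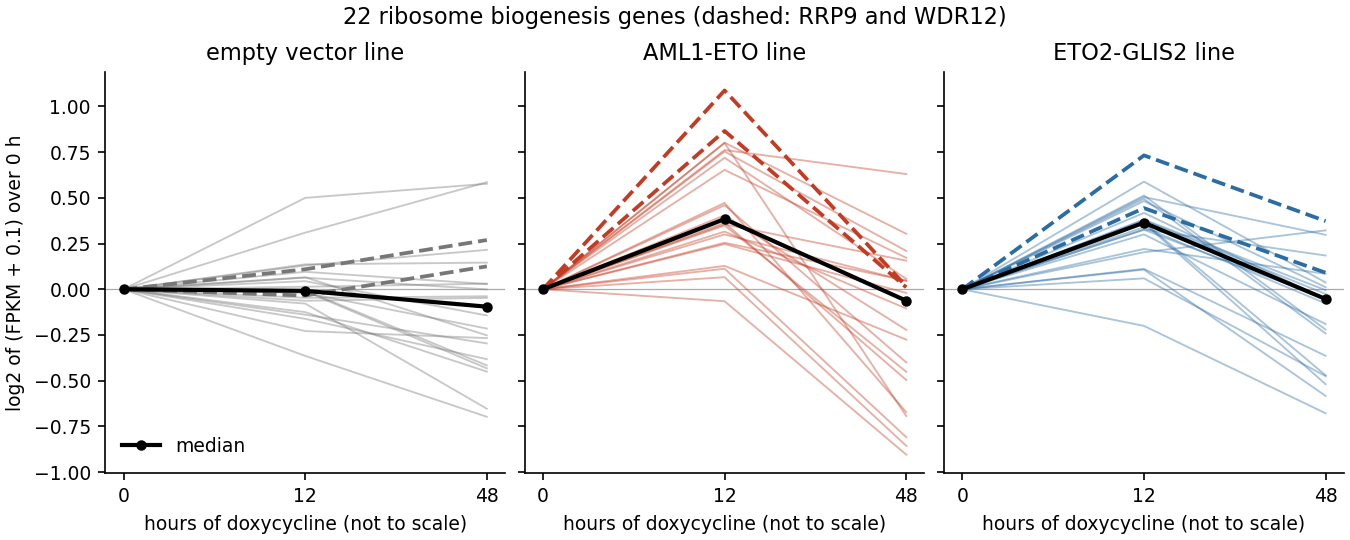
Course of the 22 genes of the ribosome biogenesis list, as log2 of FPKM plus 0.1 relative to 0 h of the same line (vertical axis) at 0, 12 and 48 h (horizontal axis, not to scale), 1 line per gene with RRP9 and WDR12 dashed and the median in black. The median at 12 h is 0.38 in the AML1-ETO line, 0.36 with ETO2-GLIS2, and -0.01 in the empty vector line.

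Host genes of small nucleolar RNAs, whose introns carry these guides of ribosomal RNA modification, gave 2 members, SNHG10 and SNHG19. SNHG10 was at 1.05, 2.002 and 0.71 in the AML1-ETO line, 0.82, 1.31 and 0.71 with ETO2-GLIS2, and 0.94, 1.43 and 1.697 in the empty vector line. It peaked in both fusion lines, and in the empty vector line it was highest at 48 h. SNHG19 was at 6.70, 15.9 and 7.30, at 12.5, 15.2 and 12.9 and at 6.65, 7.53 and 9.31, from 84 reads at 12 h in the AML1-ETO line. Of 13 other measured host genes on a list, 9 were highest at 12 h in the AML1-ETO line, 4 with ETO2-GLIS2, and 1 in the empty vector line, against the 34.7%, 31.4% and 31.8% given above, and none of them was a member. The empty vector line rose at 12 h too. In the same order of lines, the median log2 ratio of 12 h to 0 h was 0.68, 0.22 and 0.50. From 12 to 48 h it was -0.13, 0.24 and 0.37. At least 1.8 times higher at 12 h were 5, 0 and 4 of the 13, against 7.67%, 3.34% and 5.13% of all genes. SNHG10 had an empty vector ratio of 1.48, just under the limit of 1.5.

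CCNE1, the cyclin of entry into S phase, was at 1.59, 2.97 and 0.96 in the AML1-ETO line, 1.74, 2.70 and 1.74 with ETO2-GLIS2, and 2.10, 2.71 and 2.01 in the empty vector line. All 3 lines were highest at 12 h, and the ratio of 48 h to 12 h was 0.35 (0.22 to 0.47) in the AML1-ETO line and 0.66 (0.47 to 0.87) with ETO2-GLIS2. It was the only member among 18 measured S phase genes, of which 18, 13 and 7 were at most 0.6 times as high at 48 h as at 12 h in the AML1-ETO, ETO2-GLIS2 and empty vector lines. Of all 10178 genes, 17.6%, 3.53% and 3.11% passed that ratio.

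On a list of 16 measured granule and monocyte genes none was a member, where 1.23% of all genes were. The members described next, picked after their values were seen, had unlike courses in the ETO2-GLIS2 line. SERPINB2 (ENSG00000197632, chr18:63887705-63903888), an inhibitor of plasminogen activators, was the member with the most reads, 3737 at 12 h. It was at an FPKM of 38.3, 88.3 and 41.9 in the AML1-ETO line, 40.3, 54.0 and 63.4 with ETO2-GLIS2, and 31.8, 25.9 and 39.2 in the empty vector line. In the ETO2-GLIS2 line it was thus 1.34 times (1.26 to 1.42) higher at 12 h than at 0 h and 1.17 times (1.11 to 1.24) higher again at 48 h, where the AML1-ETO line came down to 0.47 (0.45 to 0.50) of its 12 h level.

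MS4A7 (ENSG00000166927, chr11:60378532-60395948), a membrane protein of macrophages, was at 2.46, 5.56 and 1.19 in the AML1-ETO line, 2.10, 1.11 and 0.83 with ETO2-GLIS2, and 1.94, 1.26 and 0.63 in the empty vector line. The 3 lines started at similar levels, and at 12 h the AML1-ETO line was up and the other lines were down. Its ratio of 12 h to 0 h was 2.21 (1.89 to 2.72) in the AML1-ETO line and 0.55 (0.40 to 0.69) with ETO2-GLIS2. IFITM2, an antiviral membrane protein, was at 31.5, 62.1 and 22.3, at 38.9, 33.9 and 26.4 and at 24.7, 22.8 and 26.5 in the AML1-ETO, ETO2-GLIS2 and empty vector lines. It was not on the list of interferon-stimulated genes, whose 11 measured genes were all higher at 48 h than at 12 h in the AML1-ETO line, each with a 12 h level at most 0.6 times that at 48 h, against 8.62% of all genes.

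ADAMDEC1, a metalloprotease of macrophages and dendritic cells, was at 1.66, 4.89 and 0.46 in the AML1-ETO line, 1.45, 3.26 and 4.06 with ETO2-GLIS2, and at most 0.33 in the empty vector line. Both fusion lines went up at 12 h, and at 48 h they were apart, with 17 reads in the AML1-ETO line and 162 with ETO2-GLIS2. DHRS9, a retinol dehydrogenase, was at 1.03, 2.95 and 0.81, at 0.78, 1.22 and 0.18 and at 0.64, 0.28 and 0.09. Both fusion lines had a peak, and the empty vector line went down throughout. MMD, named for the differentiation of monocytes to macrophages, was at 3.21, 6.57 and 1.96, at 4.33, 5.13 and 4.40 and at 4.06, 4.24 and 4.70. ITLN1, a lectin, was at 4.08, 7.69 and 2.20 in the AML1-ETO line and at 1.56, 2.62 and 2.99 with ETO2-GLIS2.

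BTG1, an antiproliferative regulator, was at 8.10, 19.0 and 10.7 in the AML1-ETO line, 12.3, 11.6 and 14.9 with ETO2-GLIS2, and 5.55, 6.48 and 12.6 in the empty vector line. Its 12 h peak was found in the AML1-ETO line, while the other lines were highest at 48 h. Of the 16 granule and monocyte genes, 10 were at most 0.6 times as high at 48 h as at 12 h in the AML1-ETO line, 7 with ETO2-GLIS2, and 3 in the empty vector line, against 17.6%, 3.53% and 3.11% of all 10178 genes. SPI1 (PU.1), a transcription factor of monocytes, was at 92.6, 53.1 and 11.9 in the AML1-ETO line, lower at each later time.

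The members TIMM8B, NDUFAF4, COX8C, CISD3 and PYCR3 encode proteins of mitochondria, and were put together after their values were seen. TIMM8B, a chaperone of protein import, was at 17.8, 35.4 and 17.7 in the AML1-ETO line, 14.7, 19.7 and 13.9 with ETO2-GLIS2, and 12.4, 14.8 and 19.9 in the empty vector line. NDUFAF4, an assembly factor of complex I, was at 4.99, 9.43 and 4.93, at 6.19, 7.50 and 6.29 and at 5.16, 6.27 and 7.39. Both peaked in the 2 fusion lines and were highest at 48 h in the empty vector line. COX8C, a subunit of cytochrome c oxidase, was at 13.0, 27.9 and 16.2 in the AML1-ETO line, and its ETO2-GLIS2 level was flat at 18.0, 17.4 and 17.9. CISD3, an iron-sulfur protein, was at 4.53, 8.79 and 4.03 and at 5.46, 5.72 and 6.76. PYCR3, an enzyme of proline synthesis, was at 1.33, 2.84 and 0.62 and at 2.21, 2.52 and 1.89.

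The other protein coding members with at least 100 reads were AGPAT5, CCDC85B, DNAJC25, EIF3CL, KLHL35, PPIH, SLC22A4 and ZNF551. CCDC85B was at 28.2, 59.8 and 34.7 in the AML1-ETO line and 27.0, 34.9 and 21.9 with ETO2-GLIS2. PPIH, a cyclophilin of the spliceosome, was at 5.96, 12.3 and 5.00 and at 12.9, 13.8 and 12.5, so that the AML1-ETO line started lower and reached the ETO2-GLIS2 level at 12 h. SLC22A4, an organic cation transporter, was at 1.37, 4.07 and 1.96 and at 1.41, 2.10 and 1.42. ZNF551, a zinc finger protein, was at 1.91, 3.72 and 1.31 and at 1.29, 2.65 and 1.92. DNAJC25 was at 1.92, 3.68 and 1.77 and at 3.44, 2.51 and 3.17, with the ETO2-GLIS2 line lowest when the AML1-ETO line was highest. AGPAT5 and KLHL35 had ETO2-GLIS2 ratios of 12 h to 0 h of 1.38 and 1.39. Their empty vector ratios were 1.35 and 1.11, so AGPAT5 rose about as much with the empty vector.

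NSFP1 and EIF3CL had the tallest peaks among the well-counted members, and both have near-identical copies, so their reads are uncertain. NSFP1, a pseudogene of the vesicle fusion ATPase NSF, had 37, 385 and 21 reads in the AML1-ETO line, 43, 30 and 22 with ETO2-GLIS2, and 31, 41 and 20 in the empty vector line. NSF itself was level in the AML1-ETO line at an FPKM of 19.8, 19.9 and 18.5. EIF3CL, a copy of the translation initiation factor gene EIF3C, had 45, 335 and 55 reads in the AML1-ETO line, 31, 40 and 32 with ETO2-GLIS2, and 45, 62 and 64 in the empty vector line. EIF3C had 715, 612 and 515 reads in the AML1-ETO line and 764, 2399 and 819 in the empty vector line. For each copy a jump was thus found in a single library, EIF3CL in the AML1-ETO line and EIF3C in the empty vector line, both at 12 h. Whether such jumps are of the gene or of how reads were shared between copies was not tested.

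The long noncoding RNA AC104129.1 had the second most reads, 3062 at 12 h in the AML1-ETO line. It was at 13.7, 41.6 and 19.0 in the AML1-ETO line, 9.90, 17.0 and 18.7 with ETO2-GLIS2, and 14.7, 15.0 and 13.6 in the empty vector line. The ETO2-GLIS2 line was 1.71 times (1.57 to 1.87) higher at 12 h than at 0 h and did not come down at 48 h. MIR4655 (chr7:1844180-1844253, minus strand) lies within its span on the opposite strand in the annotation, outside its exons, and had 40, 113 and 49 reads in the AML1-ETO line, 28, 49 and 41 with ETO2-GLIS2, and 48, 35 and 38 in the empty vector line. Both genes were higher at 12 h than at 0 h in both fusion lines, and whether their reads come from a single transcript was not tested. Both lie inside the span of MAD1L1 and outside its exons. MAD1L1 was at 1.21, 0.74 and 0.18 in the AML1-ETO line, lower at each later time. The mature sequences name the microRNA, with the seed (bases 2 to 8) in capitals, and mature microRNA was not measured.
hsa-miR-4655-5p: cACCGGGGauggcagagggucg
hsa-miR-4655-3p: aCCCUCGUcagguccccgggg

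The other long noncoding RNAs with at least 100 reads were AC019069.1, LINC02593 and ZNF674-AS1. AC019069.1 was at 2.67, 6.03 and 2.51 in the AML1-ETO line and 3.29, 5.29 and 4.22 with ETO2-GLIS2. LINC02593 was at 3.18, 6.26 and 3.70 and at 2.55, 2.94 and 4.55, highest at 48 h in the ETO2-GLIS2 line. ZNF674-AS1 was at 1.10, 2.80 and 1.64 and at 1.46, 2.27 and 1.83. In the order AC019069.1, LINC02593 and ZNF674-AS1, the empty vector ratios of 12 h to 0 h were 1.42, 1.49 and 1.26. The ETO2-GLIS2 ratios were 1.59, 1.15 and 1.52. LINC02593 thus rose more with the empty vector than with ETO2-GLIS2, and lay just under the limit of 1.5. Among the members with fewer reads, the pseudogene AP000553.5 had 18, 75 and 34 reads in the AML1-ETO line and 5, 17 and 31 with ETO2-GLIS2. MIR25, inside the gene MCM7, had 8, 22 and 11 reads in the AML1-ETO line and 3, 28 and 7 with ETO2-GLIS2, while MCM7 was at an FPKM of 76.1, 67.3 and 19.5 and of 66.6, 75.3 and 36.6. The remaining members with a tall peak and few reads were MIR4740, MIR573, SNORD15B, SNORD19C, SNRPEP4, RNU6-216P, AC009060.2 and 2 Y RNA genes, with 7 to 29 reads at 12 h, and TRBD1, for which no reads could be recovered.

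Overlapping genes limit some of these values, since the library kit does not mark the strand, and the default of HTSeq counts a read only for a gene on the strand of the read. Reads of a gene and of its antisense partner then cannot be told apart. More than 10% of the exon length of 4 well-counted members is covered by exons on the other strand, 54.6% of CISD3, 30.1% of TIMM8B, 17.4% of CCDC86 and 15.6% of PPIH. On the same strand, exons of other genes cover 19.96% of SERPINB2, 13.7% of DNAJC25 and 10.4% of BTG1. Of the 21 gene lists, 18 held no member, among them the lists of immediate early factors, heat shock genes, the integrated stress response and inflammatory cytokines. Members are 1.23% of all genes and a list had at most 22 measured genes, so lists without a member say little. Of 22 measured integrated stress response genes, 9, 4 and 11 were at least 1.8 times higher at 12 h in the AML1-ETO, ETO2-GLIS2 and empty vector lines. The shares of all genes were 7.67%, 3.34% and 5.13%. None of the 22 was at most 0.6 times as high at 48 h as at 12 h in the AML1-ETO line.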

How the data were processed

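RNA-seq was made from 9 libraries of U937 lines, 1 per line and time, grouped by the sample labels. The authors aligned reads to hg38 with HISAT2 (2.0.5), handled alignments with samtools (1.7), counted reads with HTSeq (0.9.1) at default settings, which use strand although the kit named does not mark it, and deposited FPKM for 60623 genes. The submitters' processing notes also name DESeq2 (1.22.2). The annotation version is not given in the sources used here.

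Ratios are of FPKM plus 0.1. Their intervals come from whole reads and library totals without this pseudocount, so at a low FPKM a ratio and its interval differ slightly in scale. Reads behind the FPKM were recovered from their whole-number steps for 96.7% of genes above 0, with exon lengths of a GENCODE annotation, and used only for counts of reads and intervals. Of the members, 108 matched an annotated length, 15 took the smallest whole numbers, and 2 gave none. The recovery was tested on simulated data. Totals of 15136403 to 18443644 reads set the precision. Without molecular identifiers, 2 reads can stem from 1 molecule. Coordinates, promoters and microRNAs are from RefSeq (GRCh38.p14), matched by symbol for 92 members. Kind of gene and exon overlap are from an annotation lifted to GRCh37, with no coordinates taken from it. Python 3.11.15, numpy 2.4.6, pandas 2.3.3, scipy 1.17.1 and matplotlib 3.10.9 were used.

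Members and gene lists were chosen with earlier results of these data known. Named are the 20 members with the tallest peak at an AML1-ETO 12 h FPKM of at least 5, members on a list, the 5 highest and 5 lowest for 12 h over 0 h in the ETO2-GLIS2 line at an FPKM of at least 2 there at 0 or 12 h, the genes next to the thresholds, RUNX1T1, GLIS2 and CBFA2T3. Members with at least 100 reads, the other genes of the ribosome biogenesis list and the neighbours and copies of members were named after their values were seen. Alternatives changed the pseudocount, scaling, FPKM floor, ratios, empty vector condition, kind of gene and reads. With 1 library per condition no p-value was computed.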

Additional observations from a re-analysis of the deposited data

Results flagged for a closer look

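In 3 of the 35 members with at least 100 reads the counting interval of 12 h over 0 h lay below 1 in the ETO2-GLIS2 line, opposite to the AML1-ETO line. No share over all genes was computed for this count. The log2 ratio of 12 h to 0 h in the AML1-ETO line exceeded that of the other fusion line by 2.01 for MS4A7, 1.34 for DNAJC25 and 1.17 for IFITM2. With 1 library per condition the difference was not tested. The AML1-ETO ratios of these genes took part in their choice.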

How the results depend on the processing

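The number of members (125) was 53 with an AML1-ETO 12 h FPKM of at least 5, 507 with at least 0.5, 210 without the empty vector condition, 82 with ratios of 2 and 0.5, 285 with 1.5 and 0.67, 68 with counting intervals clear of 1, 31 with protein coding genes only and 35 with at least 100 reads, a limit added after the data had been seen. In the same order, the members at least 1.8 times higher at 12 h in the ETO2-GLIS2 line (30) numbered 9, 111, 58, 14, 73, 15, 4 and 5, with the limit of each alternative where it differs, and those with both ratios (13) numbered 3, 50, 27, 4, 26, 5, 2 and 2. With a pseudocount of 1 these counts were 12 and 4. The ETO2-GLIS2 median log2 ratio of 12 h to 0 h, 0.28 over all members, was 0.00 with the floor of 0.5. That of 48 h to 12 h, 0 over all members, was -0.19 with ratios of 1.5 and 0.67, -0.17 with intervals clear of 1, -0.28 for protein coding genes and -0.29 with at least 100 reads. With median-ratio scaling the first of these medians was 0.18 and with the empty vector change subtracted 0.13, both inside 0.10 to 0.44, the 95% interval of the median across members, which are not replicates. A pseudocount of 0.01 and these settings moved no count by more than 1.5 times. The cause was not tested. No paired analysis was possible because each group holds 1 library, so none could be left out. Of the 41 members under 10 reads, 4 had both intervals clear of 1.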
